A study of Mus musculus with 58 samples.

Results

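The cell adhesion and polarity genes described here are 35 mouse genes of keratin filaments, desmosomes, adherens junctions, tight junctions, the apical polarity complex and the apical surface. They were taken by symbol from the deposited count table, which holds 24077 genes. By role they are 4 keratins, 7 desmosome genes, 4 adherens junction genes, 10 tight junction genes, 4 polarity complex genes and 6 genes of apical and surface proteins, a pump subunit and a channel. All 35 symbols were found, and their levels were followed through 3 stages, which are fully grown oocytes (FGO), the morula and, after implantation, extraembryonic ectoderm (ExE).

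The morula is the stage at which blastomeres flatten against each other through E-cadherin, and its outer cells become polarised and go on to form the first epithelium, the trophectoderm. In that epithelium keratin filaments are anchored at desmosomes, tight junctions seal the cells, and an ion pump with water channels fills the blastocyst cavity. ExE is a later epithelial derivative of the trophectoderm and contributes to the placenta.

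The study concerns Polycomb repressive complexes that contain PCGF1 or PCGF6, which are subunits of the complex that places ubiquitin on histone H2A. The oocytes were of strain B6.129 and were either wild type (CTR, 2 libraries) or Pcgf1/6 double knockout (KO, 2 libraries). Morulae and ExE were hybrids, B6.129 x PWK in the labels, read here with the mother's strain first. They were wild type (CTR, 2 libraries at each stage) or Pcgf1/6 double maternal knockout (matKO, 2 morula and 4 ExE libraries). The labels do not give the driver of the deletion, the age of the ExE, the number of oocytes or embryos per library, or whether libraries of a group came from separate animals. The p-values below therefore measure only the spread between these libraries, which may be technical.

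Levels are given as CPM, the counts of a gene scaled to the total of its library. A library held 19805264 to 26364085 counts for FGO, 1299715 to 1685510 for the morula stage and 3397585 to 4361832 for ExE, so 3 counts correspond to 0.114 to 0.151, 1.78 to 2.31 and 0.688 to 0.883 CPM. In hybrids the counts are the maternal and paternal columns added together, and reads that could not be assigned to a parent are not among them. A 0 in a hybrid can therefore mark a gene without assignable reads. Pou5f1, a pluripotency factor known to be abundant in morulae, was at 0 in all 10 hybrid libraries. Among the members, Epcam and Krt7 were at 0 in all of them too, and nothing is said of their levels in morulae or ExE. The 100 most abundant genes took 7.84 to 9.13% of the counts in morulae, against 21.2 to 22.9% in ExE and 22.3 to 26.4% in FGO. In ExE matKO replicate 3, 35.1% of autosomal reads were maternal, against 51.2 to 51.5% in the other 5 ExE libraries. The maternal share of X-linked reads in ExE was 95.8 and 96.4% in CTR and 99.9, 56.9, 61.2 and 99.8% in matKO, so that replicates 2 and 3 stood below the others in it. Pcgf1 fell in KO oocytes from 1406 and 1100 CPM to 34.9 and 22.8 CPM (log2 change -5.56, SE 0.24, adjusted p = 1.96e-05), and Pcgf6 fell from 396 and 429 to 177 and 220 CPM (-1.14, SE 0.19, adjusted p = 0.0102). In morulae Pcgf6 was at 198 and 239 CPM in CTR and 215 and 200 CPM in matKO. Pcgf1 had too few assigned reads to be tested in hybrids. In ExE the sum of both genes was 296 and 265 CPM in CTR and 199, 177, 208 and 175 CPM in matKO. Pcgf1 was at 0 in all ExE libraries but matKO replicate 1. Every matKO ExE library thus lay below both controls, and no gene was called in that comparison. The 10 oocyte markers were all detected in every FGO library, with a sum of 20957 to 21509 CPM in CTR and 15762 to 20649 CPM in KO.

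Sequence immediately upstream of the annotated start was available for 26 of the 35 genes, as 33 windows of 250 bases from RefSeq on GRCm38.p6. Each was searched on both strands for 4 short motifs, none of which is contained in another. CAGGTG, an E-box, occurred in 16 of the 33 windows (48.5%), against 17.2% of all 32851 windows of that length. GGGCGG, a box bound by KLF and SP factors, occurred in 25 (75.8% against 32.7%). CATTCC, bound by TEAD factors, occurred in 3 (9.09% against 12.6%), and AGATAA, bound by GATA factors, occurred in 2 (6.06% against 9.99%). The median GC content was 62.0% in these windows and 52.4% in all windows, and GC content was not matched. A match is only a run of letters, not a site of binding. The windows printed below are those of the partner keratins Krt8 and Krt18, both lower in each matKO morula library than in either control, and those of Epcam and Cldn7, which both rose in KO oocytes. Capitals mark the motif matches on either strand.
Krt8, chr15:102004343-102004592, minus strand: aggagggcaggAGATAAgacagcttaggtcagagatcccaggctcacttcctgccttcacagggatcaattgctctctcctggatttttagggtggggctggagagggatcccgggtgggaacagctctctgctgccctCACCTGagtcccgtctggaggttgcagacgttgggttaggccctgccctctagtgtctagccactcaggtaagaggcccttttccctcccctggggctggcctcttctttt
Krt18, chr15:102027966-102028215, plus strand: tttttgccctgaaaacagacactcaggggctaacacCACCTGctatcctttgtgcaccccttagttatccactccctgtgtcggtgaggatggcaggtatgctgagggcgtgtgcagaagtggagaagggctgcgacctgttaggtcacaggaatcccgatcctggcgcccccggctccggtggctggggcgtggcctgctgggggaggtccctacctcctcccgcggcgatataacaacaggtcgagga
Epcam, chr17:87635729-87635978, plus strand: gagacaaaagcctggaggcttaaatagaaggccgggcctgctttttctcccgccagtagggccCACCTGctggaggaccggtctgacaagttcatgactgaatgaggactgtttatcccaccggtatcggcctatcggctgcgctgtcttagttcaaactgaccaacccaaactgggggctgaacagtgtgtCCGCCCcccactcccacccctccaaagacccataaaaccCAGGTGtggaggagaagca
Cldn7, chr11:69965171-69965420, plus strand: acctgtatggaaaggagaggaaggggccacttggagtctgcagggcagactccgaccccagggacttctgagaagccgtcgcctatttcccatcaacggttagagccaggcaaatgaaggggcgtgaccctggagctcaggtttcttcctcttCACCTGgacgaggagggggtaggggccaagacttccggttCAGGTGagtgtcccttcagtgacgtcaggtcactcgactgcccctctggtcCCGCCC
Each window printed held at least 1 E-box. Those of Epcam and Cldn7 also held a KLF and SP box, and that of Krt8 held a GATA motif. Cldn7 had another window, chr11:69964529-69964778, which held a TEAD motif but neither an E-box nor a KLF and SP box. The printed windows do not stand for all members that changed. Ezr and Atp1b1 also rose in KO oocytes, and their windows held no E-box. Prkcz, which rose too, had windows with and without an E-box. Among members lower in both matKO morula libraries, the windows of Slc9a3r1 and Jup held no E-box and that of Cldn6 did.

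In control libraries the summed levels of the keratins and of the desmosome genes were lowest in oocytes. The 4 keratins together summed to 1.75 to 2.28 CPM in control oocytes, 1033 to 1144 CPM in control morulae and 8319 to 9105 CPM in control ExE. Keratin 8 and keratin 18, encoded by neighbouring genes on chromosome 15, form the first intermediate filaments of the embryo by pairing with each other. Krt8 was at 1.63 and 1.40 CPM in control oocytes, 336 and 297 CPM in control morulae and 1788 and 1979 CPM in control ExE. Krt18 was at 0.114 and 0.0389 CPM, then 797 and 716 CPM, then 5456 and 5666 CPM. Both therefore stood lowest in oocytes and highest in ExE, with no overlap between stages. Krt19, a keratin of simple epithelia, had no count in oocytes and stood at 10.1 and 19.5 CPM in control morulae and 1076 and 1461 CPM in control ExE. Desmosome genes as a group summed to 15.2 to 17.1 CPM in control oocytes, 450 to 559 CPM in control morulae and 500 to 596 CPM in control ExE. Dsc3, an epidermal desmocollin, was at 0.379 and 0.467 CPM in control oocytes and 0 in control morulae. As 3 counts over both control morula libraries are worth 0.917 CPM, no direction is given for it. Levels of FGO libraries rest on all reads of a gene and those of hybrids on allele-assigned reads, so FGO and embryo levels were set side by side and not tested.

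**Figure D1:**
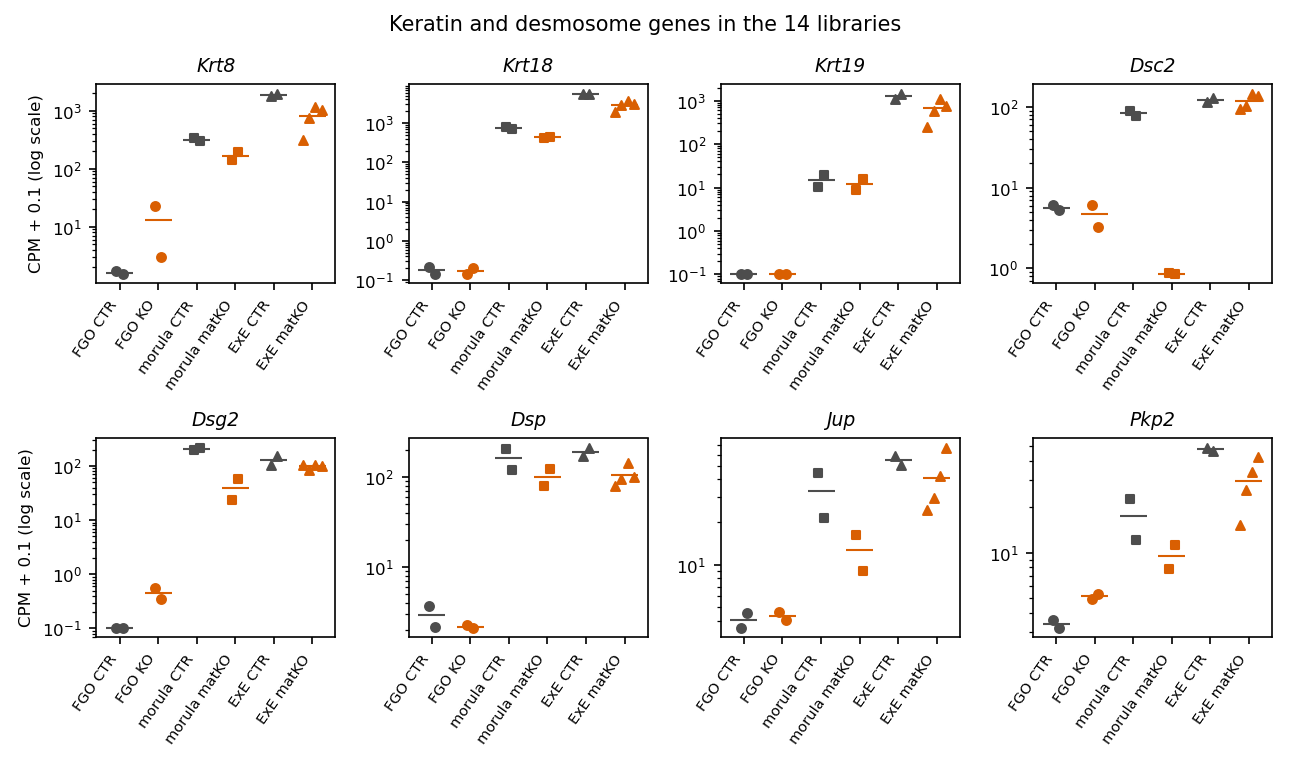
CPM plus 0.1 on a log axis for 3 keratin and 5 desmosome genes in each of the 14 libraries, by stage and genotype. Points are libraries and bars are group means. Dsc2 drops to under 1 CPM in both matKO morula libraries and nowhere else, and both matKO morula libraries lie below both controls for Krt8, Krt18 and Dsg2.

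Control ExE was compared with control morulae to describe how the programme differs between the compacting embryo and the later epithelium. Of 30 members tested, 17 rose and 8 fell in ExE (edgeR quasi-likelihood test, Benjamini-Hochberg adjusted p under 0.05), in a comparison in which 67.5% of 9977 genes were called, 27.8% higher and 39.7% lower. Keratins rose and most polarity genes fell. All 3 tested keratins rose, with log2 changes of 7.10 (SE 0.31) for Krt19, 3.55 (SE 0.16) for Krt18 and 3.24 (SE 0.16) for Krt8 (adjusted p = 3.94e-08, 6.19e-09 and 1.29e-08). Of 5 desmosome genes tested, 4 rose and none fell with TMM scaling. Pkp2, a plakophilin of the desmosomal plaque, went from 22.5 and 12.0 CPM to 49.1 and 46.8 CPM (log2 change 2.14, SE 0.33, adjusted p = 0.00011), and Jup, Dsc2 and Dsp rose by 1.39, 1.22 and 0.91 on the log2 scale. The libraries overlapped for Dsp, at 209 and 120 CPM in morulae and 172 and 215 CPM in ExE, and its call was lost without morula CTR replicate 2 or ExE CTR replicate 2 (log2 changes of 0.55 and 0.70). When libraries were scaled by their totals alone, the calls of Jup (0.71, adjusted p = 0.0896) and Dsp (0.22, adjusted p = 0.445) were lost, and Dsg2 passed as lower (-0.69, adjusted p = 0.0153). Dsc3 had 15 counts in control ExE and 0 in control morulae. Taking 3 counts in the morula group as the lowest detectable number, its level was at least 1.91-fold higher. This bound leaves out the counting error of the ExE counts.

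Among adherens junction genes, the classical cadherin gene Cdh3 (P-cadherin) went from 1.78 and 3.15 CPM in morulae to 10.2 and 15.1 CPM in ExE (log2 change 3.02, SE 0.60, adjusted p = 0.000697), and Ctnnb1 (beta-catenin) rose by 1.13, a call lost by library totals (0.46, adjusted p = 0.0748). Cdh1, the E-cadherin gene of compaction, was at 97.3 and 98.9 CPM in morulae and 92.0 and 87.1 CPM in ExE. Its log2 change was 0.54 with TMM scaling (adjusted p = 0.0331) and -0.14 when libraries were scaled by their totals alone, so no direction is given for it. Claudins, the strand-forming proteins of tight junctions, differed from one another. Cldn6, a claudin of embryonic epithelia, went from 188 and 154 CPM to 848 and 647 CPM (log2 change 2.79, SE 0.18, adjusted p = 7.10e-08). Cldn3 went from 8.90 and 15.7 to 82.0 and 65.3 CPM (log2 change 3.24, SE 0.33). Cldn4 was at 346 and 387 CPM in morulae and 315 and 266 CPM in ExE. Its log2 change was positive with TMM scaling and did not pass the test (adjusted p = 0.0772). By library totals it was -0.34, so no direction is given for Cldn4 either. Ocln (occludin) fell from 142 and 137 to 17.1 and 6.42 CPM (log2 change -2.91, SE 0.37, adjusted p = 3.67e-05). F11r, which encodes the junctional adhesion molecule JAM-A, fell from 419 and 457 to 109 and 69.5 CPM (log2 change -1.64, SE 0.20).

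The PAR complex marks the apical side of polarised blastomeres. Pard6b fell from 29.7 and 36.5 CPM in morulae to 4.50 and 2.29 CPM in ExE (log2 change -2.61, SE 0.46, adjusted p = 0.00033). Prkcz, an atypical protein kinase C, fell from 89.0 and 68.7 to 18.2 and 20.4 CPM (log2 change -1.35, SE 0.27). Pard3 fell from 290 and 130 to 44.3 and 43.3 CPM (log2 change -1.59, SE 0.33). Its log2 change was -0.97 without morula CTR replicate 1, and its call was lost without ExE CTR replicate 1 (adjusted p = 0.203) or ExE CTR replicate 2 (adjusted p = 0.196). The other kinase, Prkci, was at 185 and 165 against 145 and 156 CPM. It passed as a rise with TMM scaling (0.46) and stood at -0.22 by library totals.

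At the apical surface and among the pump and channel genes, Ezr (ezrin, a linker of microvilli to actin) rose by 2.18 (SE 0.23) and its partner Slc9a3r1 by 1.53 (SE 0.23). Aqp3, a water and glycerol channel, fell from 104 CPM in each morula library to 3.56 and 7.57 CPM (log2 change -3.54, SE 0.36, adjusted p = 3.61e-06). Atp1b1, the beta subunit of the sodium pump, fell from 34.4 and 32.8 to 8.30 and 7.34 CPM (log2 change -1.43, SE 0.37). The tetraspanin gene Tspan8 had 867 counts in control morulae and 1 in control ExE, a ratio of 0.00044 (95% exact interval 1.11e-05 to 0.00246, counting error only). Scaling mattered in this comparison. The median log2 change over all genes was -0.28 with TMM factors and -0.95 by library totals alone, where 10 members rose and 10 fell, and the all-gene split went from 2776 higher and 3959 lower to 1551 higher and 5422 lower. With TMM factors the median change of the 30 members was 0.69. The share of counts in the 100 most abundant genes, given above, differed between the stages, and its part in these changes was not tested.

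**Figure D2:**
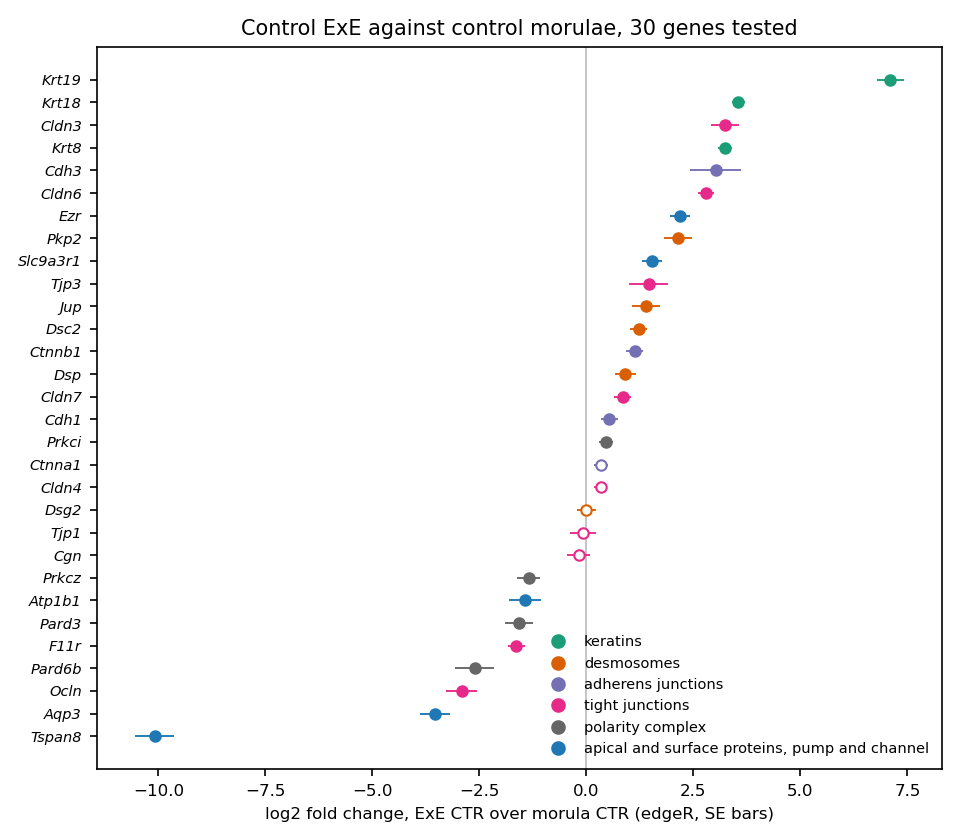
Log2 fold change of the 30 members tested in control ExE over control morulae, with SE bars, from the edgeR fit with TMM scaling. Filled points passed an adjusted p under 0.05 and colours give the role. Keratins stand at the upper end and 3 of 4 polarity complex genes below 0. Cdh1, Prkci, Cldn4 and Ctnna1 lie so near 0 that scaling by library totals turns their sign.

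In matKO morulae the desmosomal cadherin gene Dsc2 (desmocollin 2) was nearly lost. It was at 89.6 and 77.5 CPM in the CTR libraries and at 0.769 and 0.742 CPM in the matKO libraries, which is 274 counts against 2. Both matKO libraries were far below both controls, and each held a single count. The log2 change was -6.60 (SE 0.47, adjusted p = 0.0104), and the ratio of counts was 0.00902 (95% exact interval 0.00109 to 0.0329, counting error only). Over the 11 alternative analyses its log2 change lay between -6.74 and -6.49 and the adjusted p was at most 0.0112. Dsc2 was the only one of 29 members tested to pass, and 0.132% of all 9063 genes tested did (12 genes, of which 2 or 0.0221% were higher and 10 or 0.11% lower). In bulk embryos, fewer cells of a type and less RNA per cell cannot be told apart.

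The other members that were lower did not pass with that test. Dsg2 (desmoglein 2), the partner cadherin of Dsc2 in simple epithelia, lies in the same cluster on chromosome 18, at 20558074 to 20604526 against 20030633 to 20059554 for Dsc2 (GRCm38.p6). It was at 193 and 219 CPM in CTR and 23.1 and 56.4 CPM in matKO morulae, with no overlap (log2 change -2.33, SE 0.33, adjusted p = 0.0557). Krt18 was at 797 and 716 against 410 and 450 CPM (-0.78, SE 0.10, adjusted p = 0.0510). Krt8 was at 336 and 297 against 138 and 195 CPM (-0.89, SE 0.17, adjusted p = 0.0743). Both partner keratins thus stood lower in each matKO library than in either control. Krt19 was at 10.1 and 19.5 against 8.46 and 15.6 CPM and overlapped. Jup (plakoglobin), the catenin of desmosomes, was at 44.5 and 21.4 against 16.2 and 8.90 CPM (-1.35, SE 0.51, adjusted p = 0.208), without overlap. Dsp (desmoplakin), which ties keratin to the plaque, was at 209 and 120 against 79.2 and 125 CPM and overlapped.

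None of the tested genes of the apical surface, pump and channel passed. Slc9a3r1 was at 70.6 and 58.0 CPM in CTR and 9.23 and 17.1 CPM in matKO (log2 change -2.24, SE 0.37, adjusted p = 0.0635). Atp1b1 was at 34.4 and 32.8 against 11.5 and 8.90 CPM (-1.67, SE 0.39, adjusted p = 0.0966). Tspan8 was at 259 and 272 against 90.8 and 131 CPM (-1.21, SE 0.18, adjusted p = 0.0557). None of these 3 genes overlapped between groups. Ezr, at 145 and 143 against 122 and 108 CPM, had a log2 change of -0.29 (adjusted p = 0.327). Aqp3, at 104 CPM in each CTR library against 127 and 118 CPM, was the only tested member higher in both matKO libraries (0.27, adjusted p = 0.369).

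Cldn6 was at 188 and 154 against 60.0 and 82.4 CPM (log2 change -1.22, SE 0.20, adjusted p = 0.0635) and Prkci at 185 and 165 against 111 and 117 CPM (-0.58, SE 0.15, adjusted p = 0.116). Cldn3 was at 8.90 and 15.7 against 3.85 and 5.19 CPM (-1.39, SE 0.63, adjusted p = 0.268), Tjp3 at 10.1 and 7.56 against 1.54 and 5.94 CPM (-1.18, SE 0.76, adjusted p = 0.418), and Cgn at 57.0 and 58.6 against 40.0 and 38.6 CPM (-0.52, SE 0.25, adjusted p = 0.303). Both matKO libraries lay below both controls for these 3 genes too. Smaller differences were measured for Cdh1, Cldn7 and F11r. Cdh1 was at 97.3 and 98.9 against 87.7 and 98.7 CPM, Cldn7 at 89.6 and 88.8 against 84.6 and 83.1 CPM, and F11r at 419 and 457 against 419 and 384 CPM. Their log2 changes were -0.03 (SE 0.17), -0.05 (SE 0.18) and -0.09 (SE 0.10), and the missed threshold does not show that they were equal.

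Across the members, 25 of 29 log2 changes were below 0 with a median of -0.58, beside a median of -0.02 over all genes tested, of which 51.6% were below 0 and 48.4% above. The members were chosen with earlier results of these data known. Setting them beside all genes, here and at the other stages, is therefore a description and not an independent test. Groups did not overlap for 20 members, 19 of them lower in matKO and 1 higher, where 53.1% of all genes did not overlap, 29.5% lower and 23.5% higher. An unadjusted p under 0.05 was reached by 10 members, all lower, against 19.8% of all genes at that level, 10.7% lower and 9.03% higher. The number of members called moved with the method and the libraries. Of all genes called, 16.7% were higher with TMM factors and 27.8% with DESeq2 size factors. The count of members was 4 with DESeq2 size factors, 7 with the DESeq2 Wald test and 9 without the low-count filter, and all calls were of lower genes. It was 1 without CTR replicate 1, 5 without CTR replicate 2, 6 without matKO replicate 1 and 7 without matKO replicate 2.

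Genes related by pathway and markers of other cells were read beside these values. None of the 12 other keratin, 8 other desmosome and cornified envelope, 12 other adherens junction, 17 other tight junction and 18 other polarity genes listed passed in morulae, among the 2, 2, 7, 7 and 14 that could be tested. Msn (moesin), a relative of ezrin, was at 64.1 and 42.2 against 2.31 and 7.42 CPM (log2 change -3.38, SE 0.53, adjusted p = 0.0565), and Vcl (vinculin) at 171 and 141 against 74.6 and 82.4 CPM (-0.95, adjusted p = 0.0737). The 10 trophectoderm markers summed to 1340 to 1375 CPM in CTR and 952 to 1054 CPM in matKO morulae. Of these, Dppa1 fell from 322 and 294 to 70.0 and 107 CPM (log2 change -1.76, SE 0.20, adjusted p = 0.0399). Eomes was at 65.3 and 59.8 against 11.5 and 11.9 CPM (adjusted p = 0.0510), and Cdx2 at 29.1 and 28.3 against 6.92 and 23.0 CPM. The other trophectoderm markers are not given singly. The 17 epithelial transcription factors listed summed to 1101 to 1153 CPM in CTR and 1114 to 1118 CPM in matKO morulae. Cdx2, Gata3, Tfap2c and Elf5 are in both lists. The X-linked maternal share was 75.3 and 74.1% in CTR and 62.1 and 57.7% in matKO. The part of trophectoderm content or embryo sex in the member values was not tested.

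**Figure D3:**
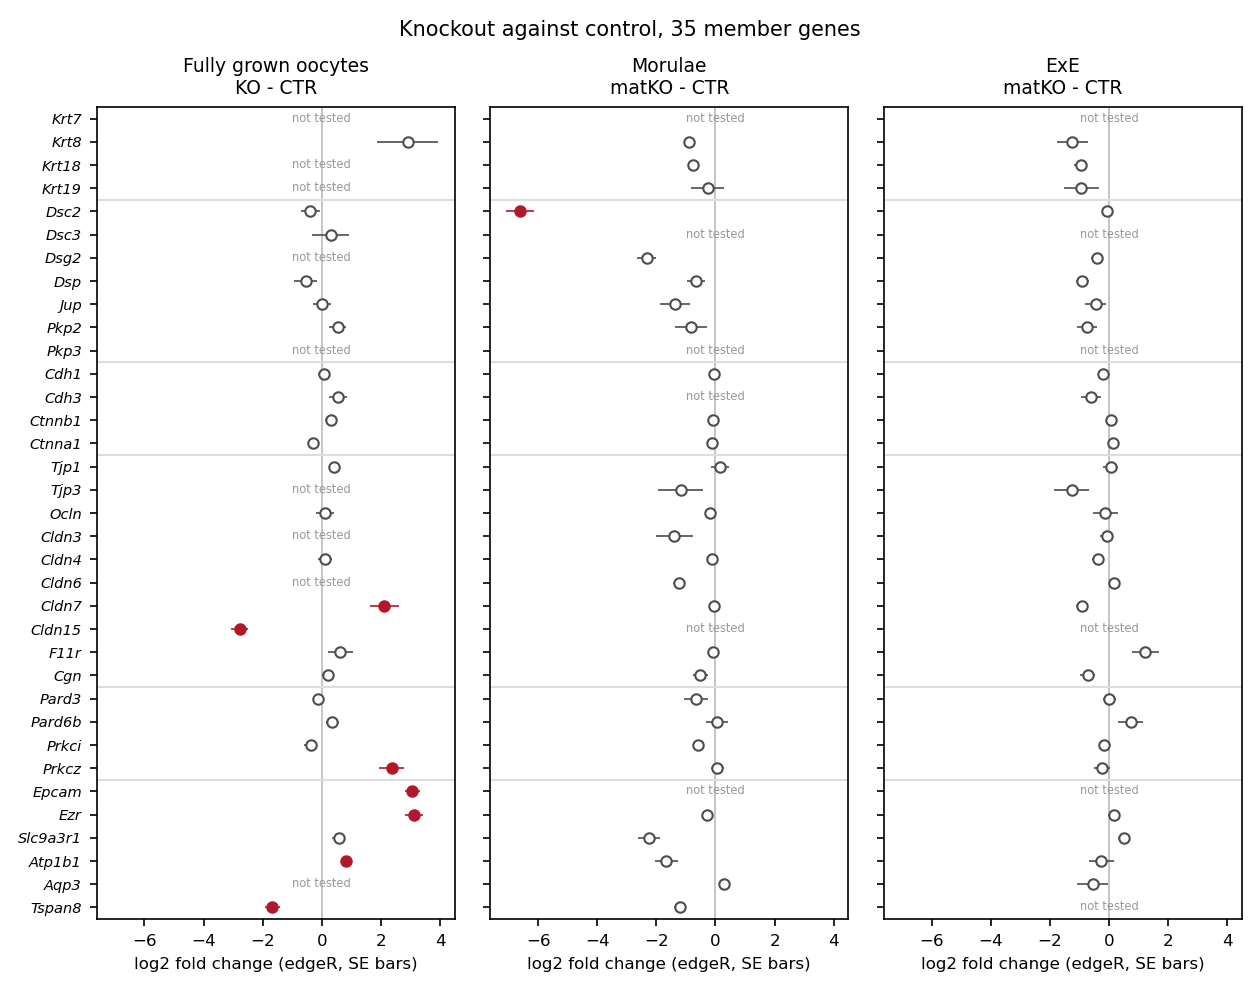
Log2 fold change (knockout over control) of the 35 members in FGO, morulae and ExE, with SE bars and one shared axis. Filled points passed an adjusted p under 0.05, open points did not, and genes without enough reads are marked as not tested. In FGO 5 members rose and 2 fell, in morulae Dsc2 alone fell, and in ExE none passed.

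In matKO ExE no member passed among 29 tested. Too few counts were present for Krt7, Dsc3, Pkp3, Cldn15, Epcam and Tspan8, and in morulae for Krt7, Dsc3, Pkp3, Cdh3, Cldn15 and Epcam. The background was the same, with 0 of 8386 genes called (0%) by edgeR and 1161 genes (13.8%) at an unadjusted p under 0.05. The DESeq2 Wald test called 3 members (Cldn7, Krt18 and Dsp) and 217 genes. Dsc2 was at 116 and 128 CPM in CTR and 93.9, 104, 147 and 136 CPM in matKO ExE, so that the groups overlapped (log2 change -0.06, SE 0.20, adjusted p = 0.927). Dsg2 was at 103 and 154 against 105, 84.7, 103 and 102 CPM (-0.42, SE 0.19, adjusted p = 0.360).

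The keratins were lower on average and spread widely among the matKO libraries. Krt18 was at 5456 and 5666 CPM in CTR and 1951, 2902, 3675 and 3126 CPM in matKO ExE (log2 change -0.96, SE 0.21, adjusted p = 0.168). Krt8 was at 1788 and 1979 against 317, 738, 1165 and 1045 CPM (-1.24, SE 0.52, adjusted p = 0.389). All 4 matKO libraries were below both controls for these 2 genes. Krt19, at 1076 and 1461 against 250, 588, 1118 and 763 CPM, overlapped (-0.93, SE 0.60, adjusted p = 0.549). MatKO replicate 1 was the lowest library for each of the 3 keratins. Without the library that stood apart in its autosomal allele share, replicate 3, the log2 change of Krt18 was -1.10 with an adjusted p of 0.0520, in a range of 5.10e-05 to 0.964 over its 13 alternatives. Without replicate 2 it was -0.96 (adjusted p = 0.294).

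Other members with small unadjusted p-values pointed in both directions. Cldn7, a claudin, was at 106 and 96.1 CPM in CTR and 42.0, 54.0, 67.0 and 53.3 CPM in matKO ExE (log2 change -0.93, SE 0.19, adjusted p = 0.120). Dsp was at 172 and 215 against 79.9, 95.9, 143 and 102 CPM (-0.91, SE 0.22, adjusted p = 0.169). Every matKO library lay below both controls for these 2 genes, as it did for Cgn (cingulin, a scaffold of tight junctions) and Pkp2. F11r was at 109 and 69.5 against 313, 256, 108 and 165 CPM (1.22, SE 0.46, adjusted p = 0.335), with replicate 3 inside the control range. Slc9a3r1 was at 136 and 98.6 against 204, 153, 136 and 179 CPM (0.50, SE 0.19, adjusted p = 0.292). Groups did not overlap for 8 of 29 members, 6 lower and 2 higher, beside 23.8% of all genes (11.3% lower, 12.5% higher). At an unadjusted p under 0.05 there were 6 lower and 2 higher members, beside 6.26% and 7.58% of all genes. The median member change was -0.24, beside 0.004 over all genes, and 20 changes were below 0 and 9 above, beside 49.3% and 50.7% of all genes. With any single library left out, no member passed.

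Marker sums also differed between the ExE groups. The 8 ectoplacental cone markers summed to 2940 to 4329 CPM in CTR and 823 to 2736 CPM in matKO, and the 8 pluripotency markers to 2.06 to 33.2 and 54.6 to 254 CPM, with Pou5f1 at 0 throughout and Nanog at 0 in both CTR libraries. The 9 visceral endoderm markers summed to 1.38 to 2.84 and 5.67 to 21.5 CPM. The 10 trophoblast stem cell and ExE markers summed to 1281 to 1304 and 1382 to 1627 CPM. Sox2 and Esrrb are in both this last list and the pluripotency list. In matKO replicates 2 and 3 no other pluripotency marker had a count. The part of cell composition or embryo sex in the keratin values was not tested. None of the other keratin, desmosome, adherens junction, tight junction and polarity genes listed passed.

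Whether the matKO effect differed between ExE and morulae was tested directly. It did for Dsc2, Slc9a3r1 and Cldn6 out of 30 members tested, and for 0.34% of 11182 genes (0.277% higher in ExE, 0.0626% lower). The effect in ExE minus that in morulae was 6.53 for Dsc2 (log2, SE 0.55, adjusted p = 6.99e-05), 2.67 for Slc9a3r1 (SE 0.37, adjusted p = 0.00993) and 1.32 for Cldn6 (SE 0.22, adjusted p = 0.0215). Only 1 member passed without morula CTR replicate 1, without morula matKO replicate 1 or without ExE CTR replicate 2, and the call of Dsc2 was kept in all 16 alternatives. For the keratins the difference was -0.25 for Krt18 (SE 0.30), -0.41 for Krt8 (SE 0.76) and -0.74 for Krt19 (SE 1.35), which did not pass.

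In KO oocytes 5 of 26 members tested rose (Epcam, Ezr, Prkcz, Cldn7 and Atp1b1) and 2 fell (Cldn15 and Tspan8), in a comparison in which 7.22% of 13459 genes were called (5.35% higher, 1.87% lower). Epcam, an epithelial adhesion molecule, was at 2.05 and 2.26 CPM in CTR and 22.3 and 16.6 CPM in KO oocytes (log2 change 3.06, SE 0.25, adjusted p = 0.000555). Ezr was at 3.57 and 2.14 against 32.8 and 21.1 CPM (3.12, SE 0.30, adjusted p = 0.00112). Both KO libraries stood clearly above both controls for these genes. Prkcz went from 1.02 and 0.700 to 6.27 and 3.38 CPM (2.36, SE 0.41, adjusted p = 0.0117). Cldn7, whose protein is known to bind EPCAM, went from 0.531 and 0.739 to 2.18 and 3.64 CPM (2.11, SE 0.49, adjusted p = 0.0368). Atp1b1 went from 12.9 and 12.8 to 28.5 and 20.7 CPM (0.83, SE 0.20, adjusted p = 0.0404). In each case the 2 KO libraries were above the 2 controls, although levels of Prkcz and Cldn7 stayed under 7 CPM.

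The members that fell in KO oocytes were a claudin and a tetraspanin. Cldn15, a claudin that forms channels for cations, went from 20.3 and 31.7 to 4.86 and 3.28 CPM (log2 change -2.78, SE 0.28, adjusted p = 0.00133). Tspan8 went from 11.2 and 14.7 to 4.54 and 4.14 CPM (-1.68, SE 0.26, adjusted p = 0.00765). The calls of Epcam, Ezr, Prkcz, Cldn15 and Tspan8 held in all 11 alternatives. Atp1b1 lost its call when CTR replicate 1, CTR replicate 2 or KO replicate 1 was left out, and when libraries were scaled by their totals (adjusted p 0.00873 to 0.190 over the alternatives). Cldn7 lost it without CTR replicate 1 or KO replicate 2 (adjusted p 0.0019 to 0.0954).

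**Figure D4:**
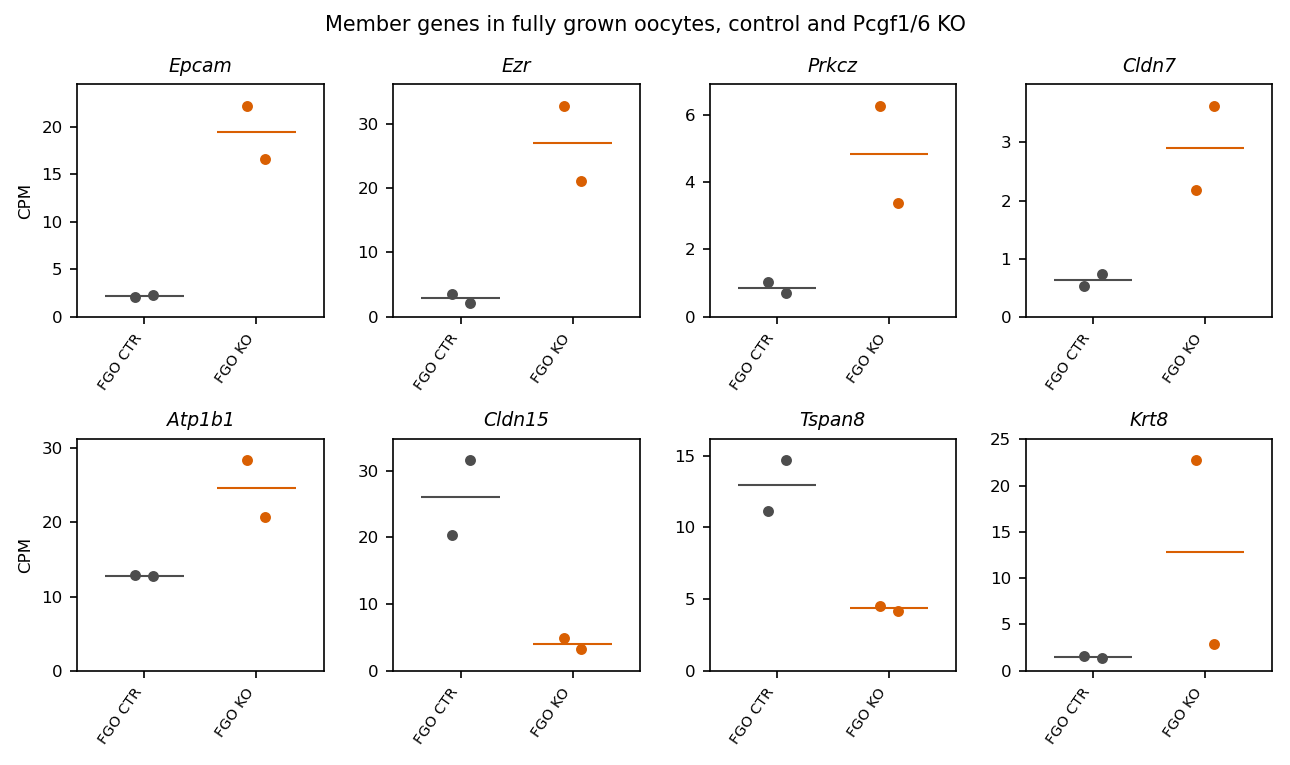
CPM on a linear axis from 0 for the 7 members called in FGO and for Krt8, in the 2 CTR and 2 KO libraries. Points are libraries and bars are group means. The KO libraries lie above the controls for Epcam, Ezr, Prkcz, Cldn7 and Atp1b1 and below them for Cldn15 and Tspan8, while the Krt8 mean is set by 1 KO library.

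Krt8 differed between the KO oocyte libraries themselves. It was at 1.63 and 1.40 CPM in CTR, 22.8 CPM in KO replicate 1 and 2.88 CPM in KO replicate 2, and it did not pass (log2 change 2.91, SE 1.03, adjusted p = 0.224). Without KO replicate 2 it passed (log2 change 3.70, adjusted p = 0.000499), and over its 11 alternatives the adjusted p ranged up to 0.855. Its partner Krt18 had 4 counts in CTR and 3 in KO oocytes, a ratio of 0.934 (95% exact interval 0.137 to 5.52). Dsg2, Tjp3 (a tight junction scaffold) and Aqp3 had no count in control oocytes and 15, 14 and 5 counts in KO oocytes. Taking 3 counts over the controls as the lowest detectable number, they were at least 6.23-fold, 5.81-fold and 2.08-fold higher, at levels of at most 0.454 CPM. These bounds leave out the counting error of the KO counts. Dsc2, at 6.03 and 5.13 against 6.09 and 3.18 CPM, overlapped (-0.39, SE 0.32, adjusted p = 0.554).

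The adherens junction genes of oocytes did not pass. Cdh1 was at 42.9 and 43.3 CPM in CTR and 61.4 and 36.7 CPM in KO, and Ctnna1 (alpha-catenin) at 109 and 114 against 108 and 86.0 CPM. KO replicate 1 was the higher KO library for each. The Ctnnb1 log2 change was 0.32 (SE 0.20) and did not pass (adjusted p = 0.407). Of the 26 members, 19 had a log2 change above 0 and 7 below, beside 50.3% and 49.7% of all genes, with a median of 0.31 beside 0.004 over all genes. Groups did not overlap for 16 members, 12 higher and 4 lower, beside 50.2% of all genes (32.1% higher, 18.1% lower). The members called numbered 5 to 8 over the 11 alternatives. Krt7, Krt18, Krt19, Dsg2, Pkp3, Tjp3, Cldn3, Cldn6 and Aqp3 had too few counts in oocytes to be tested.

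Among related genes in oocytes, 6 of 13 tested epithelial transcription factors rose and 1 fell, beside 5.35% and 1.87% of all 13459 genes. The summed level of the 17 factors listed was lower in KO, at 690 to 714 CPM against 772 to 916 CPM in CTR. Klf4 went from 3.38 and 2.26 to 44.7 and 14.7 CPM (log2 change 3.25, SE 0.52, adjusted p = 0.0193), and Klf5 from 0 and 0.0389 to 1.18 and 1.01 CPM (adjusted p = 0.0107). Ovol1, Elf3, Tfap2c and Gata2 rose by 2.26, 1.03, 1.23 and 2.81, while Gata3 fell by 1.04. Among other adherens junction genes Nectin2 and Cdh2 rose (1.84 and 1.42) and Jam2 and Nectin3 fell (-1.63 and -0.66). Dsg1a, another desmoglein, fell by 1.45, and Lats2, Aqp11 and Plec rose by 3.18, 1.91 and 1.52. None of the 5 tested other keratins, 12 other tight junction genes or 16 other polarity genes passed. The 10 granulosa markers, listed to look for follicle cells attached to oocytes, summed to 91.6 to 93.5 CPM in CTR and to 87.8 to 163 CPM in KO. KO replicate 1 had the highest sum of the oocyte libraries. Amh and Wt1, of that list, were at 0 in both KO oocyte libraries. The same 10 markers summed to 272 to 282 CPM in control morulae and 332 to 352 CPM in matKO morulae. Their sum therefore does not read follicle cells alone. The part of follicle cells in the Krt8 value of KO replicate 1 was not tested.

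The effect in morulae minus that in oocytes was tested across the 8 libraries of those stages. Genotype (KO or matKO), strain and kind of counts differ along with stage, and their parts in the difference cannot be told apart. The difference passed for 7 of 32 members, all lower in morulae, and for 2.62% of 14719 genes (2.24% lower, 0.38% higher). The differences were -3.42 for Ezr (SE 0.36, adjusted p = 0.000689), -6.32 for Dsc2 (SE 0.69), -2.82 for Slc9a3r1 (SE 0.45), -2.51 for Atp1b1 (SE 0.41), -2.30 for Prkcz (SE 0.46) and -2.16 for Cldn7 (SE 0.49). Dsg2 passed too, with a group at 0 counts, so that its fitted difference has no interpretable size. For Ezr, Slc9a3r1, Atp1b1 and Cldn7 both KO oocyte libraries lay above their controls and both matKO morula libraries below theirs. Of all genes tested at each stage, 32.1% lay above in oocytes and 29.5% lay below in morulae, and the share with both was not counted. These genes were taken from members already called for this difference, which favours such a pattern. None of Ezr, Slc9a3r1, Atp1b1 and Cldn7 passed in morulae alone. The morula difference was small for Cldn7 (89.6 and 88.8 against 84.6 and 83.1 CPM) and Ezr (145 and 143 against 122 and 108 CPM). When FGO CTR replicate 1 or FGO CTR replicate 2 was left out, 2 members passed. Over the 14 alternatives the calls of Ezr and Dsc2 were kept, and Cldn7 lost its call in 8 of them and Prkcz in 5. Scaling moved the split of all genes called, of which 14.5% were higher with TMM factors and 24.4% with DESeq2 size factors, while the all-gene median moved by 0.15. With the DESeq2 Wald test, which changes the test and filter as well as the scaling, 37.8% were higher and the median moved by 0.20.

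Maternal and paternal reads were compared in the hybrids. The libraries with allele counts come from 1 direction of the cross, so the parent and the strain (B6.129 or PWK) cannot be told apart in them. The labels also list wild-type morulae of both directions (B6 x PWK and PWK x B6), which were not analysed here. In control morulae 9 of 27 members departed from balance, in a comparison in which 25.2% of 7637 genes did (10.4% paternal, 14.8% maternal). Paternal reads were in excess for Krt18, Krt19, Dsp, Ocln, Cldn4, Cldn6 and F11r and maternal reads for Pard3 and Cgn. Without CTR replicate 1, 1 member passed, and likewise without CTR replicate 2. For Ocln 35.4 and 37.8% of reads were maternal (log2 paternal over maternal 0.87, SE 0.14, adjusted p = 0.00548). For Pard3 the maternal share was 73.6 and 71.0% (log2 -1.32, SE 0.23, adjusted p = 0.00804), and for Cgn 68.8 and 75.3% (-1.28, SE 0.30, adjusted p = 0.0246). The paternal excess of Krt18 was small, at 48.2 and 46.3% maternal (log2 0.24, SE 0.06, adjusted p = 0.0268), and Krt8, at 51.9 and 49.8% maternal, did not pass.

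Krt19 had no maternal read in morulae. Control morulae held 17 and 31 paternal reads and matKO morulae 11 and 21, with 0 maternal reads in all 4 libraries, which allows a maternal share of up to 6.25% over the controls and 9.38% over matKO. In ExE the same gene had 2249 maternal and 2290 paternal reads in CTR replicate 1 (49.5% maternal, 95% exact Clopper-Pearson interval 48.1 to 51.0%) and 53.7% maternal reads in CTR replicate 2. The difference between the stages was not tested, and intervals cover counting error only.

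For Dsc2 the loss in matKO morulae concerned both parental copies. Control morulae held 94 maternal and 57 paternal reads in replicate 1 (62.3% maternal, interval 54.0 to 70.0%) and 70 and 53 in replicate 2 (56.9%, interval 47.7 to 65.8%). MatKO morulae held 1 maternal read in replicate 1 and 1 paternal read in replicate 2. In ExE the maternal share of Dsc2 was 62.8 and 58.2% in CTR, where the excess passed (log2 -0.53, SE 0.13, adjusted p = 0.00208), and 71.4, 61.9, 48.3 and 64.7% in matKO. The lowest of these is replicate 3, the library with 35.1% maternal autosomal reads.

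**Figure D5:**
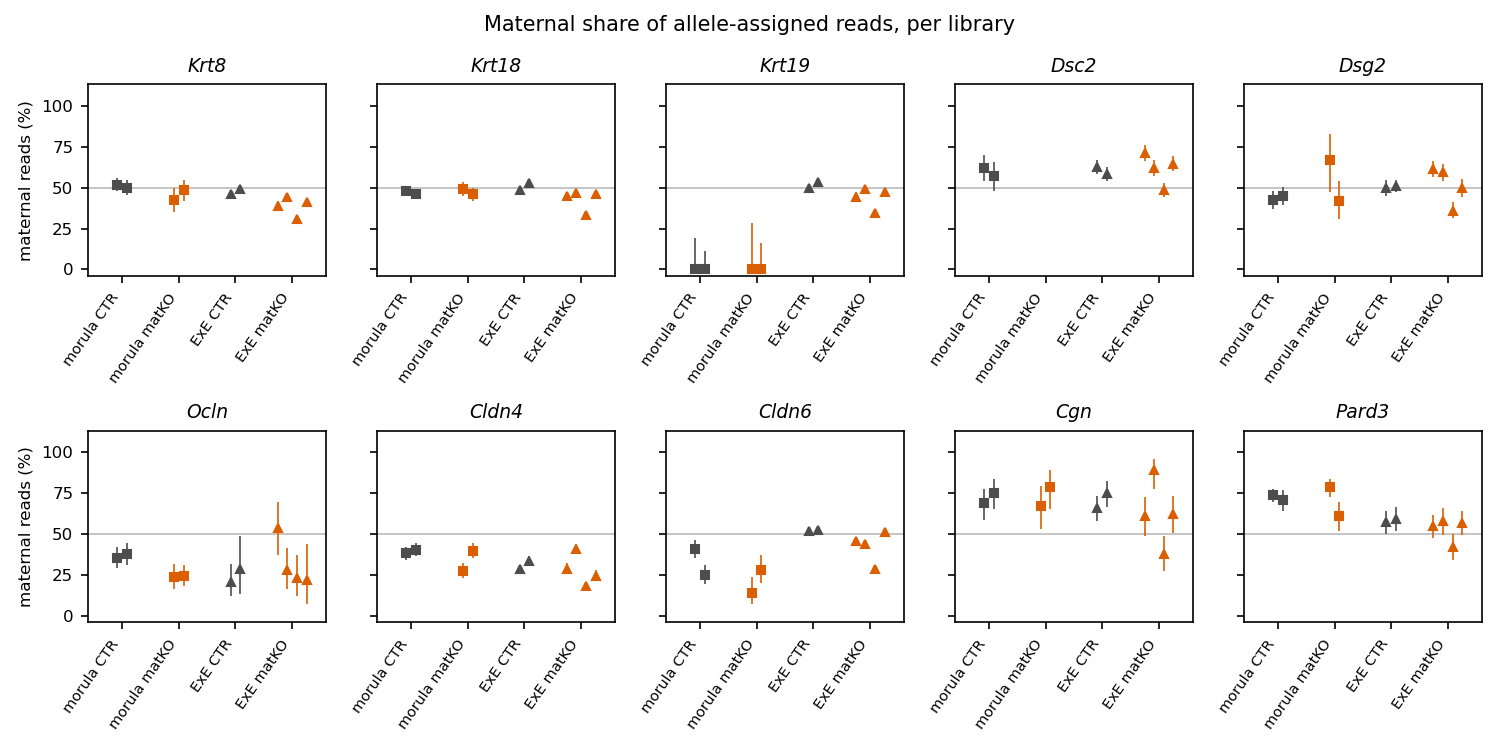
Share of allele-assigned reads that are maternal, in percent, for 10 members in each hybrid library with at least 10 reads of the gene, with 95% Clopper-Pearson intervals and a line at 50. Krt19 has no maternal read in the 4 morula libraries and is near 50% in control ExE. MatKO ExE replicate 3, the third of 4 triangles, is the lowest of its group for Krt8, Krt18, Krt19, Dsc2, Dsg2, Cldn4, Cldn6, Cgn and Pard3.

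In control ExE 8 of 27 members departed from balance, beside 31.5% of 6857 genes (14.3% paternal, 17.2% maternal). Ezr (44.8 and 45.0% maternal), Ocln (20.8 and 28.6%), Cldn4 (28.5 and 33.9%), Atp1b1 (37.1 and 18.8%) and Ctnna1 (49.0 and 47.2%) had paternal excess, and Dsc2, Cgn (66.0 and 75.4%) and Cdh1 (56.7 and 59.5%) maternal excess. Ocln, Cldn4 and Cgn passed at both stages with the same parent in excess. Without CTR replicate 1 there were 2 such members and without CTR replicate 2 there were 3.

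No member passed the test for a shift of allelic balance in matKO embryos. With so few libraries, the missed threshold does not show that the balance was unchanged. Dsc2 was tested in morulae, but 1 maternal and 1 paternal read in matKO are too few to show a shift. In morulae 3 of 7637 genes passed (0.0393%) and in ExE 5 of 6857 (0.0729%), and no member was among them by edgeR. At an unadjusted p under 0.05 there were 2 members in morulae, beside 8.20% of genes, and 3 in ExE, beside 6.34%. The smallest was Ocln in morulae, at 35.4 and 37.8% maternal in CTR and 23.5 and 24.2% in matKO (log2 shift 0.84, SE 0.21, adjusted p = 0.308). In ExE it was Cldn6, at 51.7 and 52.8% against 45.7, 43.9, 28.9 and 51.2% (0.34, SE 0.10, adjusted p = 0.514). Its call was made only without matKO replicate 4, and that of Krt18 only without CTR replicate 1. Without replicate 3 no member passed.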

How the data were processed

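RNA-seq libraries made with SMART-Seq v4 and Nextera XT, per the labels' protocols, gave counts for 24077 genes in 14 libraries. The authors deposited raw read counts per gene, as whole-gene counts for FGO and as separate maternal and paternal counts for morulae and ExE, which were added here. The submitters' processing notes list mm10 and, among other tools, STAR 2.7.3 and RSEM 1.3.1. Which tool made the counts, and how reads were assigned to alleles, is not given in the sources used here. The kit does not mark strand, so antisense reads cannot be told apart. Other samples of the series, of 58 in all, were not used here.

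Counts were tested with edgeR 4.0.16 in R 4.3.3 (robust quasi-likelihood test, TMM factors, filterByExpr) on all genes of the groups compared, with Benjamini-Hochberg adjusted p under 0.05 called. CPM values used library totals. Allelic counts were tested with terms for library, allele and allele by genotype, with offsets from autosomal totals, on genes with a mean of at least 20 reads, and X-linked genes were left out in ExE. DESeq2 1.42.0, other scalings, filters and libraries left out were alternatives. Scaling by library totals alone was chosen after seeing the data. Scripts were tested on simulated data. The members and gene lists were chosen with earlier results of these data known. All members are accounted for, with full values for those called and for up to 8 others with the smallest p in a comparison.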

Additional observations from a re-analysis of the deposited data

Results flagged for a closer look

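In a group of 4 libraries a value was singled out when its gap to the nearest other was a large share of the group's range (Dixon's 95% critical value), which chance does in about 1 in 20 groups, and 58 values were checked. ExE matKO replicate 3 stood apart in its maternal percent for Krt18 (33.3%), Ctnna1 (31.7%), F11r (38.4%) and Slc9a3r1 (25.2%), as it did over all autosomal reads (35.1%). ExE matKO replicate 4 stood apart for Pard6b, at 6.77 CPM.

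The knockout effect differed between stages by a test of the difference itself (edgeR, adjusted p under 0.05). Between FGO and morulae, genotype (KO or matKO), strain and kind of counts differ along with stage and cannot be told apart. ExE minus morula, the log2 difference was 6.53 for Dsc2, 2.67 for Slc9a3r1 and 1.32 for Cldn6. Morula minus FGO, it was -6.32 for Dsc2, -3.42 for Ezr, -2.82 for Slc9a3r1, -2.51 for Atp1b1, -2.30 for Prkcz and -2.16 for Cldn7. The fitted value for Dsg2 was -7.60, with control oocytes at 0 counts, so its size is no bound.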

How the results depend on the processing

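Over all alternatives, 1436 values of single members were recomputed, of which 1265 kept their direction and side of the threshold, 82 lost a call, 76 gained one and 13 changed sign. The changes of sign were, for ExE against morulae, Dsg2 at 0.018 with DESeq2 size factors, 0.026 with the DESeq2 Wald test, 0.023 without the low-count filter and -0.37 to 0.31 with single libraries left out, Tjp1 at -0.27 to 0.13 with single libraries left out, and, by library totals, Cdh1 at -0.14, Prkci at -0.22, Cldn4 at -0.34 and Ctnna1 at -0.33. For alleles they were, with single libraries left out, Ctnna1 in morulae (-0.0012 to 0.18), the shift of Cldn4 in morulae (-0.082 to 0.74) and Pkp2 in ExE (-0.18 to 0.74). The cause was not tested.

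Members called in morulae numbered 4 with DESeq2 size factors, 7 with the DESeq2 Wald test, 9 without the low-count filter and 2 by library totals, and 1 to 7 with single libraries left out. Genes called there numbered 54, 206 and 489 under the first 3 of these, 7 without the robust option and 6 without X-linked and Y-linked genes, and 7 to 524 with single libraries left out. In ExE the DESeq2 Wald test called 3 members and 217 genes, and no low-count filter gave 2 members and 112 genes, with 0 to 6 genes when single libraries were left out. In FGO 1630 genes were called without the filter and 767 to 2029 with single libraries left out. For ExE minus morula, 191 genes were called by DESeq2 and 238 without the filter, and single libraries left out gave 1 to 74 genes and 1 to 4 members. For morula minus FGO these were 679 and 791, with 124 to 558 genes and 2 to 7 members. Allelic balance with single libraries left out gave 1 to 9 members and 804 to 1990 genes in morulae and 2 to 9 members and 1386 to 2201 genes in ExE. Allelic shifts gave 9 genes in morulae at a mean of at least 10 reads, 0 to 3 genes there with single libraries left out, and 0 to 1 members and 4 to 14 genes in ExE. Where an arm was left with 1 library, it was assumed to vary like the others.

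Replicate numbers are shared between groups, but no label ties them to an animal or day. Deviations of same-numbered libraries correlated at 0.29 in FGO, 0.18 in morulae and 0.26 and 0.10 in ExE, over 2 pairs each, which is too few to show whether the numbers pair the libraries, and no block was used in the values above. With the replicate block, 7 members and 2021 genes were called in FGO, 7 and 310 in morulae and 12 and 923 in ExE. The block gave 7 members and 550 genes for ExE minus morula, and 8 members and 668 genes for morula minus FGO.

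With 2 libraries in most groups, and 3 counts worth 1.78 to 2.31 CPM in morulae, 6 members had too few counts to be tested there.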
